A study of Mus musculus with 12 samples.

Results

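The genes described here are 39 interferon-stimulated antiviral genes of the mouse, followed through kidney cortex after chronic ethanol feeding, an injection of bacterial lipopolysaccharide (LPS), or both. They were taken by name from a list of interferon-induced effectors and regulators, with no threshold on their values but with earlier results of these data known, and all 39 were found among the 47719 genes of the deposited expression table. All 39 also passed the filter on low values, so they are 39 of the 14109 genes tested. The list holds 4 transcription factors, 7 nucleic acid sensors and their partners, 3 genes of the ISG15 system, 5 TRIM proteins, 5 genes of the PARP family and its partner Dtx3l, 5 antiviral effectors and 10 other induced genes.

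The mice were male C57BL6/J, 8 weeks old per the labels. For 6 weeks they took a Lieber-DeCarli liquid diet whose ethanol content ended at 6%, or were pair-fed an isocaloric diet with maltose-dextrin. Each diet was divided into mice given LPS at 10 mg/kg and mice given saline, both intraperitoneally and 4 hours before the kidneys were taken. The 4 groups carry the labels PF (pair-fed, saline), EtOH (ethanol, saline), PF4hLPS (pair-fed, LPS) and EtOH4hLPS (ethanol, LPS), with 3 RNA libraries each. Because no label states that the libraries of a group came from separate mice, the p-values below measure only the spread between these libraries. The values are FPKM, fragments per kilobase of transcript scaled to the fragments of the library, so that levels of different genes can be set side by side.

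The FPKM of all genes added up to 1005219 in the smallest and 1935824 in the largest library, and 12354 to 13092 genes per library had at least 1 FPKM. The number of fragments per library is not known. A rough depth relative to PF library 1 was read from the steps between the lowest values. It was 0.72 to 1.199 in the other saline libraries and 0.491 to 0.762 in the LPS libraries, lowest in PF4hLPS library 2. The part of depth in the results was not tested. Defining kidney markers were present in every group, with the 6 proximal tubule markers summing to at least 41260 FPKM, the 2 podocyte markers to at least 23.1 FPKM and the 2 thick ascending limb markers to at least 575.7 FPKM in each library. Most of the proximal tubule sum came from Kap alone. Its means were 65216 FPKM in PF, 43263 FPKM in EtOH, 85016 FPKM in PF4hLPS and 54663 FPKM in EtOH4hLPS.

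Interferons are secreted proteins that warn cells of infection. Type I and type III interferons act through receptor-bound JAK kinases and a complex that contains STAT2 and IRF9 and binds the interferon-stimulated response element (ISRE) of target genes, while interferon gamma acts on the gamma-activated site (GAS). LPS is recognised by the receptor TLR4, which can induce interferon beta through the adaptor TRIF and the factor IRF3, so that antiviral genes are switched on without a virus. In the kidney both tubular cells and resident leukocytes can respond to interferon.

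The promoters of several of these genes hold letters that match the core of the ISRE, and they are shown as a description. The 250 bases before each RefSeq transcription start (GRCm38.p6) were searched on both strands for the ISRE core (GAAA, any 2 bases, GAAA) and, separately, for the GAS core (TTC, any 3 bases, GAA). The table of promoters held 29 of the 39 genes. The ISRE core was present for 7 of these 29 (24.1%), beside 3.46% of the 27025 genes of the whole promoter table. The GAS core was present for 4 of the 29 (13.8%), beside 8.13% of all genes. A match describes the letters only, and the Slfn5 match lies in a run of A. The genes were chosen as interferon-induced, and whether a match goes with the size of the LPS change was not tested. Below, each window is written 5′ to 3′ on the strand of the gene, with the matched ISRE core, on either strand, in capitals.
Isg15, chr4:156200855-156200916, minus strand: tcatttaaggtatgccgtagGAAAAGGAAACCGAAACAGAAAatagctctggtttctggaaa
Bst2, chr8:71537567-71537622, minus strand: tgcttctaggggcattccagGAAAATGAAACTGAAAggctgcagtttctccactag
Rsad2, chr12:26456543-26456592, minus strand: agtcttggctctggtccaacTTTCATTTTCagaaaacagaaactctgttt
Parp11, chr6:127446776-127446825, plus strand: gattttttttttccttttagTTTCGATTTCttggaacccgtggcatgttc
Stat2, chr10:128270256-128270305, plus strand: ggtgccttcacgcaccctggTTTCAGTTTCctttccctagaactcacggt
Trim30a, chr7:104465200-104465249, minus strand: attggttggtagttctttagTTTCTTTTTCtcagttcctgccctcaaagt
Slfn5, chr11:82951927-82951976, plus strand: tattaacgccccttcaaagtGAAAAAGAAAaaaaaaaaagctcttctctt
In Isg15 the capitals join 3 overlapping cores, whose first bases lie 78, 72 and 66 bases before the start. In Bst2 they join 2 overlapping cores, at 130 and 124 bases before the start, and a GAS core at 136 overlaps the first of them. The Parp11 core lies 44 bases before the start, and a GAS core at 37 overlaps it.

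The other 2 GAS matches lay in the promoters of Irf1, the interferon regulatory factor first found as an activator of the interferon beta gene, and of Eif2ak2, which encodes the double-stranded RNA kinase PKR. They are written in the same way, with the GAS core in capitals.
Irf1, chr11:53769904-53769952, plus strand: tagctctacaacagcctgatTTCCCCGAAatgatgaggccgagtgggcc
Eif2ak2, chr17:78882722-78882770, minus strand: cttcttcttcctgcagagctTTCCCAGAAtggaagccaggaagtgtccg
The Irf1 core begins 90 bases and the Eif2ak2 core 178 bases before the start.

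Without LPS most of the 39 genes were expressed at low levels. In PF, 34 had a mean of at least 1 FPKM, 5 of at least 10 FPKM and 1 of at least 100 FPKM. That 1 gene was Samd9l, a restriction factor related to SAMD9, at 143 ± 30.2 FPKM (SD, n = 3). The least expressed was Mx1, at 0.201 ± 0.0453 FPKM. The Mx proteins are dynamin-like GTPases that block viral ribonucleoproteins, but C57BL/6 mice are known to carry defective Mx genes, and the annotation lists Mx2 as a polymorphic pseudogene, so these 2 values are of RNA only. In PF4hLPS all 39 genes had a mean of at least 1 FPKM, 37 of at least 10 FPKM and 14 of at least 100 FPKM. In EtOH4hLPS the corresponding counts were 39, 34 and 8.

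The summed level of the 39 genes was 347, 294 and 319 FPKM in the PF libraries and 309, 398 and 377 FPKM in the EtOH libraries. It was 3864, 4353 and 4147 FPKM in PF4hLPS and 3261, 3585 and 3682 FPKM in EtOH4hLPS. The LPS libraries were thus far above the saline libraries in both diets, and the EtOH4hLPS libraries all lay below the PF4hLPS libraries. When the libraries were scaled to equal total FPKM, the mean sums were 3343 FPKM in PF4hLPS and 3399 FPKM in EtOH4hLPS. With median-ratio factors they were 4048 and 3444 FPKM, so the order of these 2 groups turned with equal total FPKM and held with median-ratio factors.

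**Figure D1:**
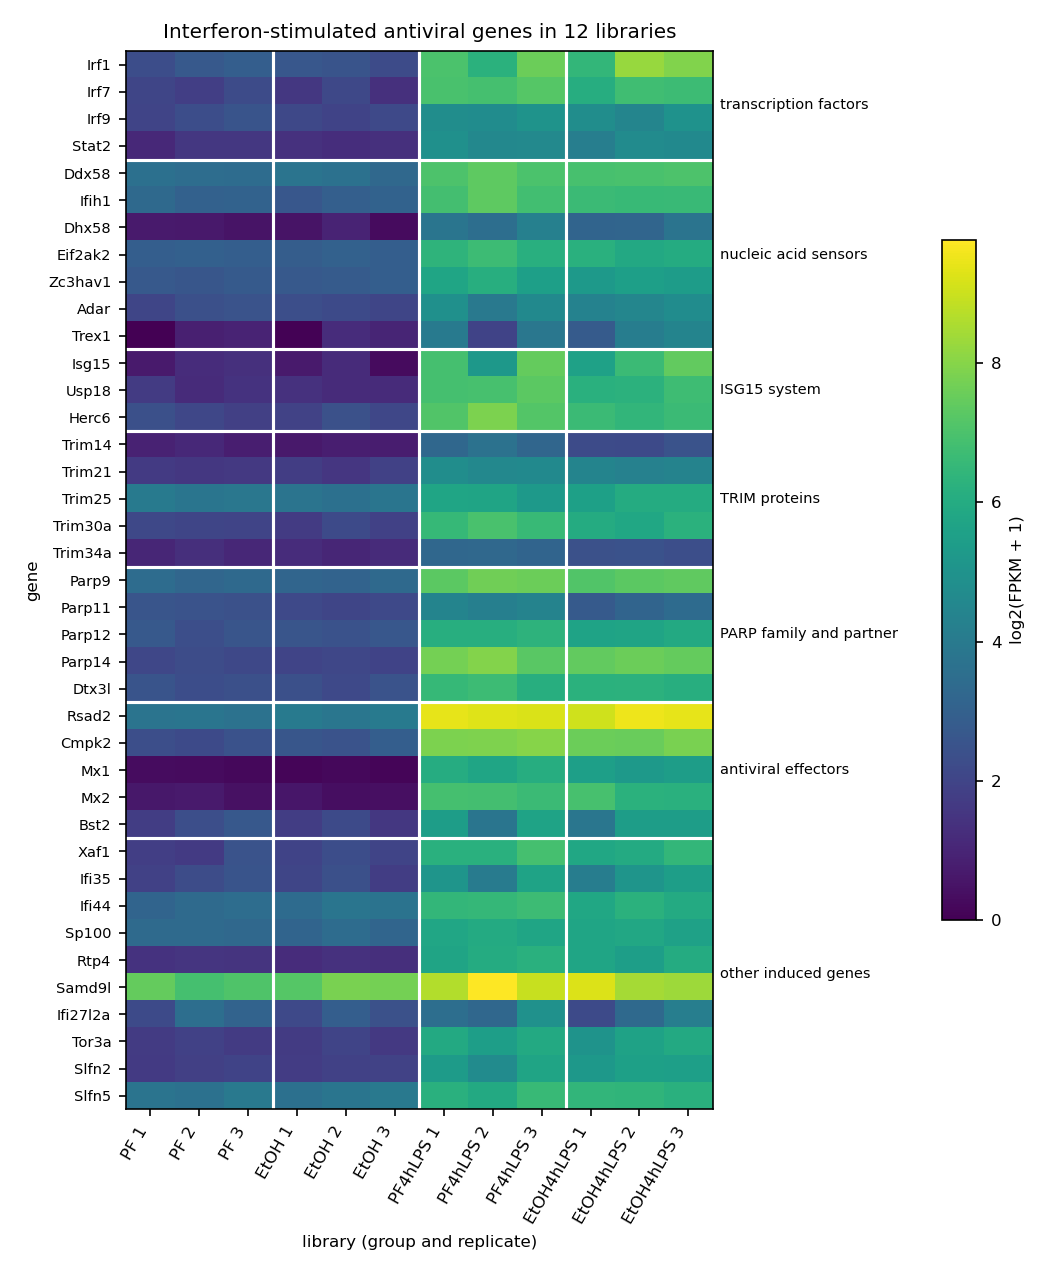
Each row is 1 of the 39 genes, grouped by role, and each column is 1 of the 12 libraries, with colour giving log2(FPKM + 1). The 6 LPS libraries on the right are brighter than the 6 saline libraries for nearly every gene, with Ifi27l2a the main exception and Samd9l already bright without LPS.

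The first comparison asked what LPS did in pair-fed mice. With limma on log2(FPKM + 1) and Benjamini-Hochberg adjustment over all 14109 genes, 38 of the 39 genes rose and none fell, while 11.3% of all genes tested rose and 6.89% fell. The median log2 fold change of the 39 genes was 3.47, and that of all genes was -0.01. In 38 of the 39 every PF4hLPS library lay above every PF library, which held for 18.5% of all genes. The same held for 38 of the 39 in ethanol-fed mice, beside 18.8% of all genes. In ethanol-fed mice LPS again raised 38 of the 39, beside 10.7% of all genes (6.39% fell), with a median of 3.21 beside 0.02 for all genes. The gene that did not pass was the same in both diets, Ifi27l2a. Dhx58, Mx1 and Mx2 reached 1 FPKM in 6 libraries, all with LPS, and Trex1 and Trim14 did so in 7. These genes passed the filter on low values only through the LPS libraries, so their LPS calls do not stand apart from that filter. Fold changes on this scale understate the change of genes that start near or below 1 FPKM, and in whole tissue a change in the number of cells of a type and a change of RNA per cell cannot be told apart.

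Among the transcription factors, all 4 rose in both diets. Irf1 had 4.02, 5.55 and 6.49 FPKM in PF and 128, 74.9 and 187 FPKM in PF4hLPS, and 5.30, 4.81 and 3.76 FPKM in EtOH and 87.1, 302 and 238 FPKM in EtOH4hLPS. The LPS libraries were all above the saline ones, but they differed among themselves by more than those of most other genes here. The log2 fold changes of Irf1 were 4.29 ± 0.43 (SE; limma adjusted p = 2.53e-05) in pair-fed and 5.05 ± 0.43 (adjusted p = 6.39e-06) in ethanol-fed mice. Irf7, which encodes the regulator that amplifies interferon alpha production, rose by 5.00 and 4.82 log2 units, and the changes of Stat2, a subunit of the ISRE-binding complex, were 3.26 and 3.15.

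Irf9, the DNA-binding subunit of the same complex, had the smallest mean change of these 4 factors. Its libraries gave 3.04, 3.96 and 4.76 FPKM in PF and 26.7, 25.6 and 31.5 FPKM in PF4hLPS, against 3.36, 2.87 and 3.48 FPKM in EtOH and 26.4, 21.02 and 30.2 FPKM in EtOH4hLPS. No LPS library overlapped a saline library, and the log2 fold changes were 2.57 ± 0.18 (limma adjusted p = 1.2e-06) and 2.65 ± 0.18 (adjusted p = 8.48e-07). Irf9 overlaps Rnf31, which reached 33.6 FPKM, on the same strand, so fragments of the 2 genes may have been divided between them.

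All 7 nucleic acid sensors and partners rose in both diets, with median log2 fold changes of 3.21 in pair-fed mice and 3.02 in ethanol-fed mice. Ifih1 encodes MDA5, the cytosolic sensor of long double-stranded RNA, and had the largest mean change. It was at 9.21, 7.09 and 7.31 FPKM in PF, 113, 163 and 112 FPKM in PF4hLPS, 5.23, 6.74 and 7.39 FPKM in EtOH, and 99.3, 95.2 and 97.8 FPKM in EtOH4hLPS. The log2 fold changes were 3.87 ± 0.19 (limma adjusted p = 3.76e-08) and 3.73 ± 0.19 (adjusted p = 5.13e-08), and no library of the LPS groups came near a saline library.

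The remaining sensors followed in both diets. Ddx58, which encodes RIG-I, rose by 3.61 and 3.40 log2 units in pair-fed and ethanol-fed mice, and Dhx58, which encodes their relative LGP2, rose by 3.21 and 2.78. Eif2ak2 rose by 3.47 and 3.09, and Zc3hav1, which encodes the zinc-finger antiviral protein, by 3.09 and 2.60. Trex1, the exonuclease that removes cytosolic DNA, was uneven among the LPS libraries, with 14.7, 2.86 and 13.5 FPKM in PF4hLPS and 5.95, 16.6 and 20.4 FPKM in EtOH4hLPS, against a highest saline value of 1.36 FPKM. Its log2 fold changes were 2.65 ± 0.60 (limma adjusted p = 0.011) and 3.02 ± 0.60 (adjusted p = 0.00533).

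Adar, whose product edits adenosine to inosine in double-stranded RNA, had the smallest mean change of the sensors. Its values were 3.13, 4.21 and 4.68 FPKM in PF, 29.2, 14.4 and 24.0 FPKM in PF4hLPS, 4.13, 3.60 and 3.08 FPKM in EtOH, and 19.3, 21.3 and 25.8 FPKM in EtOH4hLPS. Again the LPS and saline libraries did not overlap, and the log2 fold changes were 2.19 ± 0.24 (limma adjusted p = 4.99e-05) and 2.32 ± 0.24 (adjusted p = 3.23e-05).

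The ISG15 system had median log2 fold changes of 5.42 and 5.14. Isg15 encodes a ubiquitin-like protein that is attached to other proteins in infected cells, Herc6 an E3 enzyme that attaches it in mice, and Usp18 the protease that removes it and also damps the interferon receptor. Isg15 was at 0.641, 1.37 and 1.55 FPKM in PF, 118, 35.7 and 176 FPKM in PF4hLPS, 0.614, 1.29 and 0.227 FPKM in EtOH, and 46.9, 98.9 and 169 FPKM in EtOH4hLPS. Its log2 fold changes were 5.42 ± 0.58 (limma adjusted p = 6.76e-05) in pair-fed and 5.82 ± 0.58 (adjusted p = 4.25e-05) in ethanol-fed mice. The 3 LPS libraries of each diet were far apart, and the standard errors were among the largest of the 39 genes.

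Herc6 had the smallest mean change of the ISG15 system, at 4.23, 3.25 and 2.62 FPKM in PF, 137, 228 and 141 FPKM in PF4hLPS, 2.84, 4.42 and 3.28 FPKM in EtOH, and 99.3, 86.0 and 98.8 FPKM in EtOH4hLPS. It rose by 5.26 ± 0.23 log2 units in pair-fed (limma adjusted p = 1.5e-08) and by 4.42 ± 0.23 in ethanol-fed mice (adjusted p = 5.77e-08). Usp18 rose by 5.59 and 5.14 log2 units, and it overlaps an opposite-strand lincRNA that reached 53.0 FPKM.

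The TRIM proteins, RING-finger E3 ligases and their relatives that act in antiviral signalling, had median log2 fold changes of 2.45 and 2.13. Trim30a led them, with 3.30, 3.10 and 3.02 FPKM in PF, 93.1, 123 and 94.6 FPKM in PF4hLPS, 2.24, 3.52 and 2.73 FPKM in EtOH, and 63.5, 54.8 and 73.7 FPKM in EtOH4hLPS. Its log2 fold changes were 4.65 ± 0.18 (limma adjusted p = 7.14e-09) and 4.09 ± 0.18 (adjusted p = 1.92e-08). Trim21, the cytosolic antibody receptor, rose by 3.03 and 2.64 log2 units, and Trim25, the ligase known for activating RIG-I, by 1.69 and 2.13. Trim30a and Trim34a belong to a cluster of similar genes, so the counting of fragments between relatives is uncertain.

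Trim34a had the smallest mean LPS change of the TRIM genes. It was at 1.07, 1.51 and 1.15 FPKM in PF, 8.52, 8.82 and 7.89 FPKM in PF4hLPS, 1.35, 1.08 and 1.32 FPKM in EtOH, and 4.30, 4.55 and 4.03 FPKM in EtOH4hLPS. The 3 libraries of each group were close together, and the LPS level was lower in the ethanol-fed libraries. Trim34a rose by 2.07 ± 0.14 log2 units in pair-fed mice (limma adjusted p = 7.94e-07) and by 1.24 ± 0.14 in ethanol-fed mice (adjusted p = 7.7e-05).

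Among the PARP genes, whose products transfer ADP-ribose to proteins, Parp14 had the largest mean change. It went from 3.28, 3.87 and 3.37 FPKM in PF to 213, 245 and 155 FPKM in PF4hLPS, and from 3.02, 3.20 and 2.92 FPKM in EtOH to 169, 190 and 174 FPKM in EtOH4hLPS. The log2 fold changes were 5.49 ± 0.17 (limma adjusted p = 1.18e-09) and 5.46 ± 0.17 (adjusted p = 1.39e-09). Parp9 and its ubiquitin ligase partner Dtx3l are neighbours in divergent orientation on chromosome 16, with starts 681 bases apart, and they moved by like amounts, Parp9 by 4.17 and 4.08 and Dtx3l by 4.04 and 3.87 log2 units. Their gene bodies overlap on opposite strands, so their values may share fragments. Parp9 also overlaps an opposite-strand antisense gene, Gm15564, that reached 156 FPKM. Parp12 rose by 3.66 and 3.21.

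Parp11, a mono-ADP-ribosyltransferase that has been linked to turnover of the interferon receptor subunit IFNAR1, had the smallest change of the PARP genes. Its values were 4.98, 4.64 and 4.38 FPKM in PF, 20.2, 17.7 and 19.8 FPKM in PF4hLPS, 3.47, 3.14 and 3.43 FPKM in EtOH, and 5.76, 7.76 and 9.72 FPKM in EtOH4hLPS. The ethanol-fed LPS libraries lay between the saline libraries and the pair-fed LPS libraries without overlap. Parp11 rose by 1.84 ± 0.17 log2 units in pair-fed mice (limma adjusted p = 1.37e-05) and by 0.98 ± 0.17 in ethanol-fed mice (adjusted p = 0.00195). The second call was narrowly lost with libraries scaled to equal total FPKM (0.71, adjusted p = 0.0504).

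The antiviral effectors had median log2 fold changes of 5.58 and 5.25, and 1 of them, Mx2, had the largest change of all 39 genes in each diet. Mx2, the paralogue of Mx1, was at 0.558, 0.619 and 0.340 FPKM in PF, 116, 114 and 99.8 FPKM in PF4hLPS, 0.505, 0.296 and 0.338 FPKM in EtOH, and 121, 75.4 and 71.9 FPKM in EtOH4hLPS. Its log2 fold changes were 6.20 ± 0.20 (limma adjusted p = 1.31e-09) and 6.00 ± 0.20 (adjusted p = 1.93e-09). Mx1 rose by 5.69 and 5.25 log2 units. Both Mx genes went from under 1 FPKM in every saline library to at least 36.9 FPKM in every LPS library, and as near relatives they may share fragments.

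Rsad2 encodes viperin, which makes a chain-terminating nucleotide from CTP, and Cmpk2 encodes the nucleotide kinase next to it. The 2 genes lie in divergent orientation on chromosome 12 with starts 12752 bases apart. Rsad2 was at 12.6, 12.8 and 11.8 FPKM in PF and 682, 626 and 596 FPKM in PF4hLPS, and at 15.3, 13.1 and 14.7 FPKM in EtOH and 535, 727 and 683 FPKM in EtOH4hLPS. It had the highest mean of the 39 genes in both LPS groups. The log2 fold changes of Rsad2 were 5.57 and 5.39 and those of Cmpk2 were 5.58 and 4.96.

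Bst2, which encodes tetherin, the membrane protein that holds budding virions on the cell, had the smallest mean change of the effectors. It gave 2.39, 4.13 and 5.45 FPKM in PF, 41.8, 13.01 and 50.2 FPKM in PF4hLPS, 2.42, 3.61 and 2.01 FPKM in EtOH, and 13.2, 42.8 and 42.3 FPKM in EtOH4hLPS. The second PF4hLPS library and the first EtOH4hLPS library stood well below the other 4 LPS libraries but above every saline library. The log2 fold changes were 2.70 ± 0.53 (limma adjusted p = 0.00491) and 3.05 ± 0.53 (adjusted p = 0.00228).

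Of the 10 other induced genes 9 rose in both diets. Rtp4, which encodes a receptor transporter protein induced by interferon, had the largest mean change, from 1.70, 1.84 and 1.75 FPKM in PF to 51.7, 63.7 and 72.7 FPKM in PF4hLPS, and from 1.36, 1.64 and 1.47 FPKM in EtOH to 52.3, 44.0 and 64.0 FPKM in EtOH4hLPS. Its log2 fold changes were 4.51 ± 0.17 (limma adjusted p = 7.17e-09) and 4.44 ± 0.17 (adjusted p = 7.59e-09). Xaf1, a pro-apoptotic antagonist of XIAP, rose by 4.43 and 4.01, and Tor3a, a torsin ATPase, by 4.02 and 3.77. The Schlafen genes Slfn2 and Slfn5 rose by 3.44 and 2.46 log2 units in pair-fed and by 3.56 and 2.55 in ethanol-fed mice.

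Ifi44 rose by 3.22 and 2.36 log2 units, Ifi35 by 2.70 and 2.84, and Sp100, a component of nuclear bodies, by 2.48 and 2.46. Samd9l had 176, 118 and 134 FPKM in PF, 394, 870 and 494 FPKM in PF4hLPS, 147, 221 and 208 FPKM in EtOH, and 616, 350 and 321 FPKM in EtOH4hLPS. It rose by 1.97 ± 0.33 log2 units in pair-fed mice (limma adjusted p = 0.00144) and by 1.11 ± 0.33 in ethanol-fed mice (adjusted p = 0.0398), and the second call was lost with equal total FPKM (adjusted p = 0.0667), with quantile normalization (adjusted p = 0.193) and without PF library 2 or 3, any 1 EtOH library, or EtOH4hLPS library 1 or 2 (adjusted p from 0.0544 to 0.156).

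Ifi27l2a, a small hydrophobic protein gene that interferon induces in many tissues, was the only one of the 39 not to pass. It had 3.63, 10.6 and 7.58 FPKM in PF, 10.6, 8.63 and 29.9 FPKM in PF4hLPS, 3.42, 6.52 and 4.34 FPKM in EtOH, and 3.63, 9.12 and 16.9 FPKM in EtOH4hLPS. Saline and LPS libraries overlapped in both diets. The differences were 0.97 ± 0.56 log2 units in pair-fed (limma adjusted p = 0.264, 95% interval -0.26 to 2.19) and 0.75 ± 0.56 in ethanol-fed mice (adjusted p = 0.434, interval -0.48 to 1.97).

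**Figure D2:**
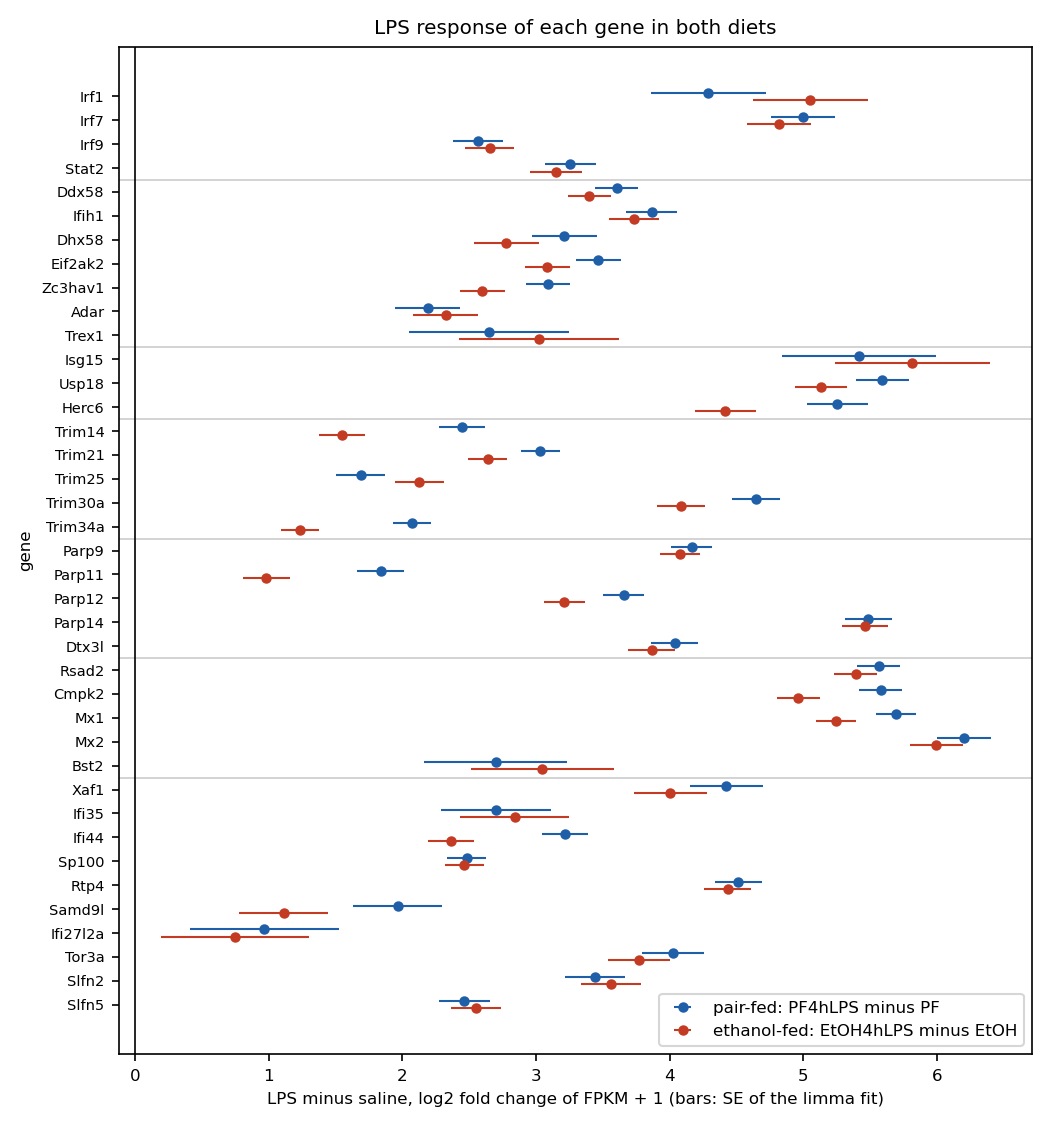
The log2 fold change of FPKM + 1 after LPS is plotted for each gene in pair-fed (blue) and ethanol-fed (red) mice, with bars for the standard error of the limma fit and grey lines between roles. All 39 points lie to the right of 0 in both diets, from 0.97 for Ifi27l2a to 6.20 for Mx2 in pair-fed mice.

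The genes of the interferon pathway itself were read from a second list. That list held 39 ligands, receptors, kinases, adaptors and feedback regulators, of which 27 passed the filter. Among them, Socs1, Socs3 and Tmem173 reached 1 FPKM in 6 libraries, all with LPS, and Ikbke did so in 8. Without the LPS libraries these genes would not have passed, so their LPS calls do not stand apart from the filter. In pair-fed mice 16 of these 27 rose and 0 fell, beside 11.3% of all genes higher and 6.89% lower, with a median of 0.91. In ethanol-fed mice 18 rose and 0 fell, beside 10.7% higher and 6.39% lower, with a median of 1.08. No diet comparison called any of the 27 in limma, with 1 of them at an unadjusted p under 0.05 without LPS and 2 with LPS, beside 521 and 1524 of the 14109 genes.

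Of the interferon ligands only Ifnk passed the filter and it was not called. Ifnb1, the interferon beta gene, was listed at 0.072, 0 and 0 FPKM in PF, 0 in all 3 EtOH libraries, 0.387, 0.147 and 0.732 FPKM in PF4hLPS and 0.108, 0.31 and 0.567 FPKM in EtOH4hLPS. Ifng, the interferon gamma gene, was at most 0.0785 FPKM in the saline libraries and at 0.422, 0.799 and 0.741 FPKM in PF4hLPS and 0.236, 0.338 and 0.876 FPKM in EtOH4hLPS. Both ligands were thus listed above their saline values in every LPS library, at levels below 1 FPKM and outside the tested genes. Values this low can rest on very few fragments, which read higher in a shallower library. The lowest LPS values of Ifnb1 lay in PF4hLPS library 2 and EtOH4hLPS library 1, with relative depths of 0.491 and 0.667, beside 1.0 in PF library 1. The part of depth in these values was not tested. Ifna1, Ifna5, Ifnl2 and Ifnl3 were listed at 0 in all 12 libraries. All 37 mitochondrial genes are listed at 0 throughout the table too, so a 0 here need not mean that a gene was silent.

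Of the receptors, 3 of 5 rose in pair-fed and 4 of 5 in ethanol-fed mice. Ifngr2, a chain of the interferon gamma receptor, changed by 1.06 and 1.40 log2 units, and Il10rb, shared by interferon lambda and interleukin receptors, by -0.27 and 0.17. In the group of kinases and signal transducers 3 of 4 genes rose in each diet. The receptor-bound kinases Jak1 and Jak2 rose by 0.91 and 1.69 log2 units in pair-fed mice and by 1.08 and 1.66 with ethanol. Tyk2, the kinase bound to IFNAR1, differed by -0.12 and -0.20 and was not called.

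In the steps that induce interferon, 3 of 6 genes rose in each diet. Tbk1, the kinase that activates IRF3, rose by 1.99 and 1.83 log2 units, while Mavs, the adaptor of the RNA sensors, differed by -0.32 and -0.26 and was not called. Among the other interferon regulatory factors Irf8 rose by 2.08 and 3.13, and Irf3 differed by 0.26 and 0.43. Feedback genes rose in 3 of 5 cases in each diet, led by Socs3, an inhibitor of JAK signalling, at 3.58 and 4.04. Socs3, like Socs1, passed the filter only through the LPS libraries. Ptpn6, a phosphatase, was at -0.08 and -0.22. Both ISG15-conjugating enzymes rose, Ube2l6 by 3.56 and 3.17 and Uba7 by 1.63 and 2.04.

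Markers of other cells were read beside the antiviral genes. The 6 neutrophil markers summed to between 3.10 and 5.45 FPKM in the saline libraries, with Ly6g and Mpo listed at 0 in all 3 EtOH libraries, and to 181 to 417 FPKM in PF4hLPS and 166 to 255 FPKM in EtOH4hLPS, and 3 of the 4 tested rose in each diet. The 4 endothelial markers summed to 78.4 to 97.1 FPKM in PF, 82.4 to 104 FPKM in EtOH, 28.5 to 32.0 FPKM in PF4hLPS and 36.5 to 42.1 FPKM in EtOH4hLPS. In each diet 3 of these 4 fell (Pecam1, Kdr and Emcn), while Flt1 differed by 0.03 and 0.20 log2 units and was not called. The 4 macrophage markers, none of them called in either diet, summed to 7.14 to 10.1 FPKM in PF, 7.28 to 11.4 FPKM in EtOH, 3.32 to 7.43 FPKM in PF4hLPS and 4.63 to 7.29 FPKM in EtOH4hLPS, with overlap. Of 14 lymphoid and plasmacytoid dendritic cell markers, 13 stayed below 1 FPKM in all libraries and the highest value was 1.501 FPKM, for Cd3g. The part of these cells in the antiviral response was not tested.

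Ethanol without LPS changed none of the 39 genes past the threshold in limma, beside 0.0142% of all genes higher and 0.0142% lower, and 2 genes had an unadjusted p under 0.05, beside 521 of the 14109. They were Parp11, at -0.38 log2 units (95% interval -0.76 to -0.00), and Cmpk2, at 0.36 (interval 0.00 to 0.71), both with an adjusted p of 1. For Parp11, the 3 EtOH libraries lay below the 3 PF libraries, and for Cmpk2, with 4.10, 3.52 and 4.44 FPKM in PF and 5.16, 4.65 and 6.54 FPKM in EtOH, they lay above. Such a gap was found for 4 of the 39 below and 2 above, beside 6.93% of all genes below and 5.63% above. The median of the 39 was -0.09, with 23 genes below 0 and 16 above.

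Under LPS, ethanol-fed kidneys had lower values than pair-fed kidneys for most of these genes, and 2 passed the test. Of the 39, 0 rose and 2 fell, Parp11 and Trim14, while 0.0354% of all genes rose and 0.0638% fell. The median difference was -0.26, with 31 genes (79.5%) below 0, beside a median of -0.00 and 50.4% of all genes. In 14 of the 39 (35.9%) every EtOH4hLPS library lay below every PF4hLPS library, which held for 5.59% of all genes, and in 0 did every library lie above, beside 5.34% of all genes. The 39 genes share the same 6 libraries and are not 39 independent observations. With equal total FPKM the median of the 39 was 0.00 with 19 genes below 0, while the median of all genes moved to 0.19, so that the 39 stood 0.19 below it, and 5 genes (12.8%) lay below without overlap, beside 2.28% of all genes. Quantile normalization and median-ratio factors each left 31 genes below 0 and 13 below without overlap. Several cell type markers lay higher in all 3 EtOH4hLPS than in all 3 PF4hLPS libraries, none of them past the threshold in limma. They were Slc12a3 of the distal tubule (16.4 to 48.9 against 51.6 to 90.1 FPKM), Slc4a1 of intercalated cells (0.518 to 1.0008 against 2.62 to 3.25 FPKM), Nphs1 of podocytes (1.89 to 3.95 against 4.08 to 8.79 FPKM), and Pecam1 and Emcn, 2 of the 4 endothelial markers. Their part in the difference of the antiviral genes was not tested.

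The lower value of Parp11 was the largest of the diet differences. Its gene lies on chromosome 6 from 127446840 to 127494261 (mm10, plus strand), and the mean was 19.3 ± 1.32 FPKM (SD, n = 3) in PF4hLPS and 7.75 ± 1.98 FPKM in EtOH4hLPS. The difference was -1.23 ± 0.17 log2 units (95% interval -1.61 to -0.86, limma adjusted p = 0.0442). Averaged over saline and LPS, ethanol-fed kidneys differed from pair-fed kidneys in Parp11 by -0.81 ± 0.12 log2 units (limma adjusted p = 0.0263). That call was lost with equal total FPKM (limma adjusted p = 0.188) and without any 1 PF or EtOH library (adjusted p from 0.0597 to 0.0999), PF4hLPS library 3 (adjusted p = 0.058) or EtOH4hLPS library 2 (adjusted p = 0.0834). Parp11 was the only one of the 39 called in that average, in which 0.22% of all genes fell and 0.0992% rose. Under LPS the adjusted p of Parp11 ranged from 0.0251 to 0.556 over the settings tried.

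Trim14, an adaptor at mitochondria that takes part in RNA and DNA sensing, was the other gene that fell. It lies on chromosome 4 from 46493781 to 46536141 (minus strand) and overlaps Nans, which reached 8.32 FPKM, on the opposite strand. Its values were 0.898, 1.17 and 0.760 FPKM in PF, 0.593, 0.786 and 0.714 FPKM in EtOH, 8.59, 11.9 and 8.45 FPKM in PF4hLPS, and 3.73, 3.62 and 4.59 FPKM in EtOH4hLPS. The LPS groups did not overlap, while the saline groups did. Trim14 differed by -1.09 ± 0.17 log2 units under LPS (95% interval -1.46 to -0.71, limma adjusted p = 0.0488) and rose with LPS by 2.45 in pair-fed mice and 1.55 in ethanol-fed mice.

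Both calls depended on the setting. They were lost when only the 6 LPS libraries entered the fit (adjusted p = 0.556 for Parp11 and 0.582 for Trim14) and with equal total FPKM, where the Parp11 difference was -0.98 (adjusted p = 0.191). The count of 2 became 0 without any 1 PF or EtOH library and without PF4hLPS library 2 or 3 or EtOH4hLPS library 2, became 1 without EtOH4hLPS library 1 or 3, and was still 2 without PF4hLPS library 1.

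Of the other genes without overlap under LPS, the 5 with the largest differences did not pass. For Trim34a the difference was -0.83 ± 0.14 (limma adjusted p = 0.0689), and the pair-fed LPS libraries, at 7.89 to 8.82 FPKM, were well apart from the ethanol-fed ones, at 4.03 to 4.55 FPKM. Herc6 differed by -0.79 ± 0.23 (adjusted p = 0.208), Trim30a by -0.68 ± 0.18 (adjusted p = 0.174) and Usp18 by -0.64 ± 0.20 (adjusted p = 0.249). Mx1, at 65.0, 52.2 and 67.5 FPKM in PF4hLPS and 45.001, 36.9 and 41.9 FPKM in EtOH4hLPS, differed by -0.56 ± 0.15 (adjusted p = 0.181). In each of these 5 genes the 2 LPS groups did not overlap.

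In 7 more genes the LPS groups did not overlap either, none of which passed: Irf7, Ifih1, Zc3hav1, Trim21, Parp12, Cmpk2 and Ifi44. The other 25 of the 39 overlapped. Among these, Rsad2 differed by 0.02 (95% interval -0.33 to 0.38) and Parp14 by -0.18 (interval -0.56 to 0.20), which leaves room for smaller differences in either direction. For Isg15, at 0.02 (interval -1.26 to 1.30), and Irf1, at 0.60 (interval -0.35 to 1.54), the spread between libraries left a wide range.

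**Figure D3:**
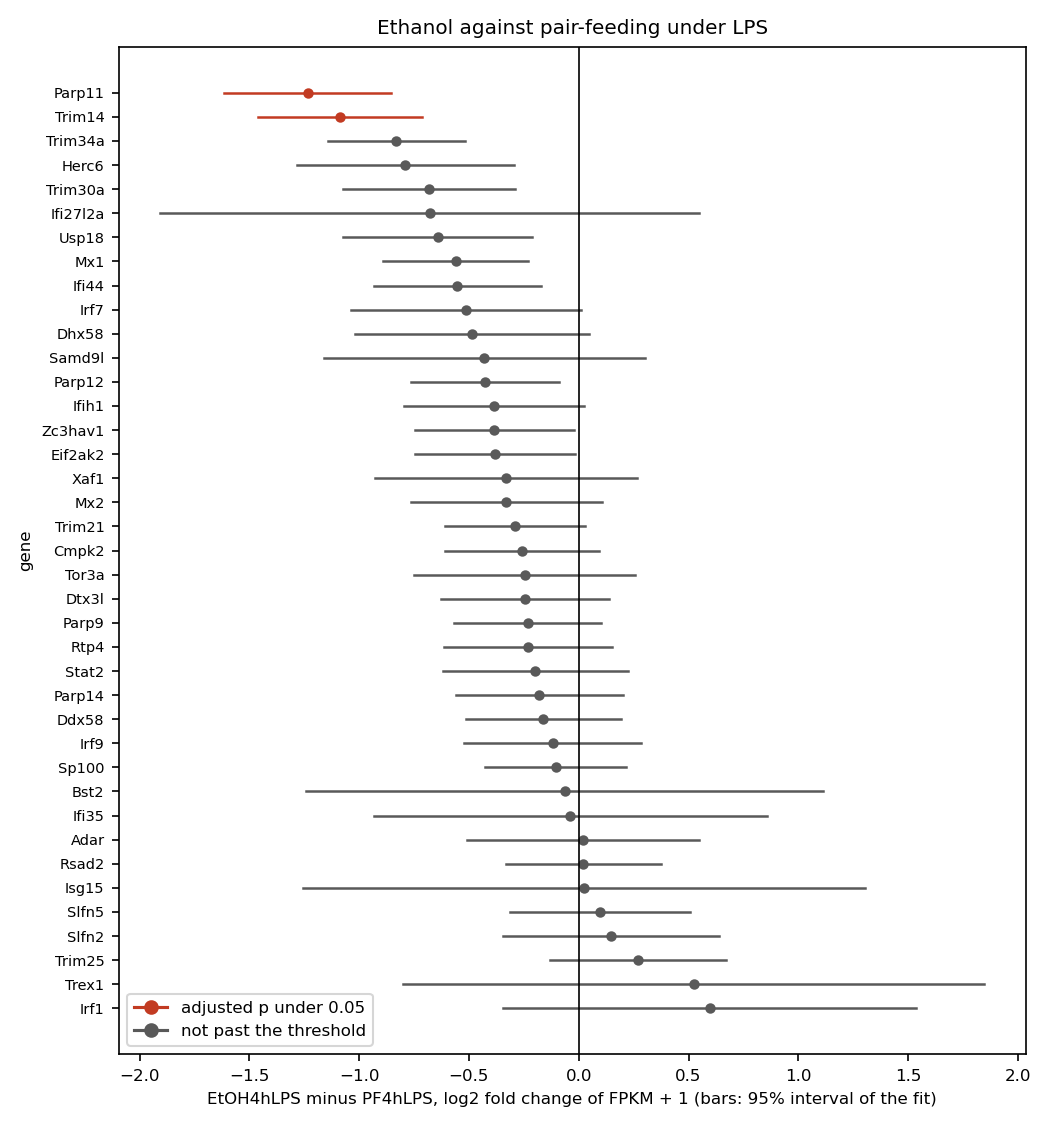
The difference between ethanol-fed and pair-fed kidneys under LPS is plotted for each gene as a log2 fold change of FPKM + 1 with its 95% interval, sorted by size, as deposited. Parp11 and Trim14 (red) passed the threshold, and 31 of 39 points lie below 0, a count that was 19 with equal total FPKM.

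The interaction asked whether the LPS response itself differed between diets. None of the 39 passed in limma, beside 0.0142% of all genes in each direction, and 7 had an unadjusted p under 0.05, beside 616 of the 14109 genes. Of the 39, 29 were below 0, with a median of -0.21 beside 0.01 for all genes. With equal total FPKM the median of the 39 was -0.01 and that of all genes 0.13, so that the 39 stood 0.135 below it, beside 0.217 below as deposited. The smallest p belonged to Trim34a, whose response differed by -0.84 ± 0.20 log2 units with ethanol (limma adjusted p = 0.846). Trim14 followed at -0.90 ± 0.24 (adjusted p = 0.847), then Ifi44 at -0.85 ± 0.24 (adjusted p = 0.86) and Parp11 at -0.85 ± 0.25 (adjusted p = 0.86). Ifi44 had 7.78, 9.40 and 10.2 FPKM in PF, 9.61, 12.8 and 12.1 FPKM in EtOH, 86.5, 90.5 and 102 FPKM in PF4hLPS, and 55.0, 73.7 and 61.6 FPKM in EtOH4hLPS, so the diets did not overlap under LPS and did overlap under saline. A different response to LPS between diets was therefore not detected for any single gene at this number of libraries.

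**Figure D4:**
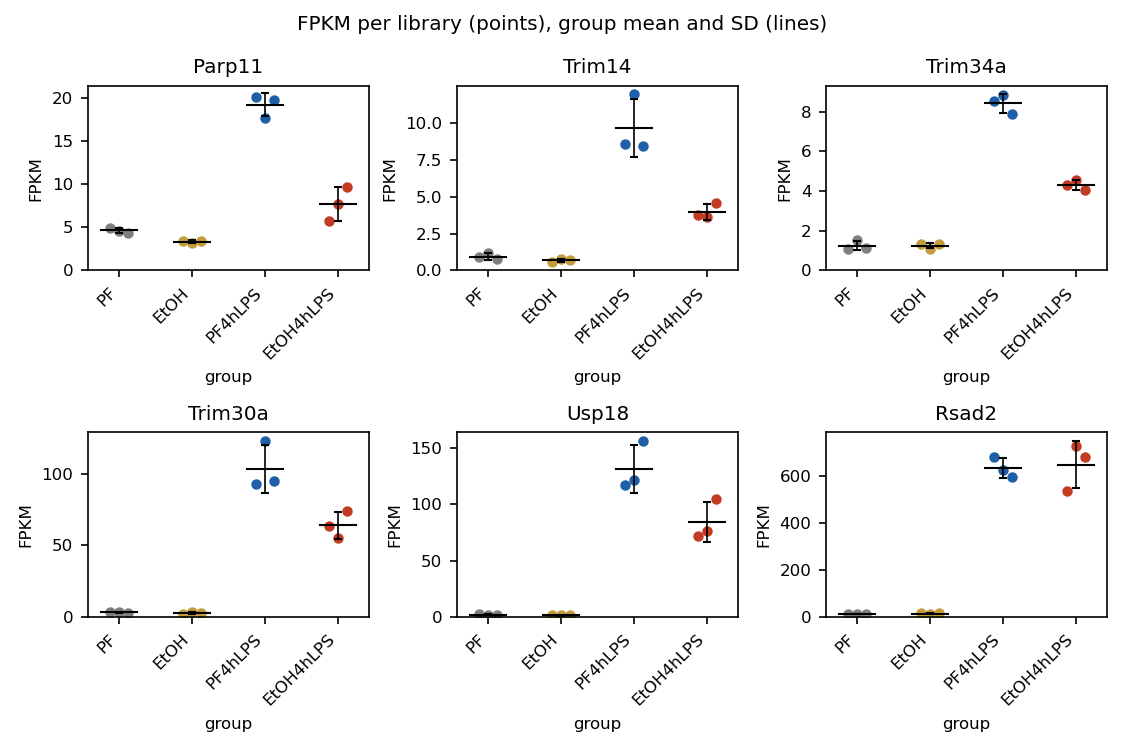
FPKM of 6 genes in each library (points), with the group mean and SD (lines), in the 4 groups. For Parp11, Trim14, Trim34a, Trim30a and Usp18 the EtOH4hLPS libraries lie below the PF4hLPS libraries, while for Rsad2 they overlap.

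The libraries did not vary alike for all members. In PF4hLPS the coefficient of variation (SD divided by mean) over the 3 libraries had a median of 18.1% and ranged from 5.68 to 71.8%, and in EtOH4hLPS the median was 15.2% and the range 2.14 to 67.4%. The 8 genes with the highest value in PF4hLPS, all at 33.4% or more, were Ifi27l2a, Isg15, Trex1, Bst2, Ifi35, Irf1, Samd9l and Adar. The cut at 8 was arbitrary, with Slfn2 next at 33.27%. Because the set was picked by the spread of these PF4hLPS libraries, its lowest PF4hLPS library is not a separate observation. Their longest coding transcripts had a median length of 1223 bases and a median GC content of 53.2%, beside 3285 bases and 47.3% for the other 31. Of the 8, 7 were lowest in PF4hLPS library 2 and 7 were lowest in EtOH4hLPS library 1, beside 12 and 16 of the other 31.

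Across the 39 genes, which share these libraries, the coefficient of variation and GC content had a Pearson correlation of 0.409 (Spearman 0.341) in PF4hLPS and 0.556 (Spearman 0.628) in EtOH4hLPS. With transcript length the correlation was -0.379 (Spearman -0.191) in PF4hLPS and -0.609 (Spearman -0.579) in EtOH4hLPS. The parts of GC content and length were not separated. The ethanol difference under LPS had a correlation of 0.369 (Spearman 0.322) with GC content, and the LPS fold change in pair-fed mice had one of -0.087 (Spearman -0.085). These describe genes within the same libraries and carry no test. Without PF4hLPS library 2, the median ethanol difference of the 39 under LPS was -0.27 with 36 genes below 0, and without EtOH4hLPS library 1 it was -0.22 with 28 below 0.

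**Figure D5:**
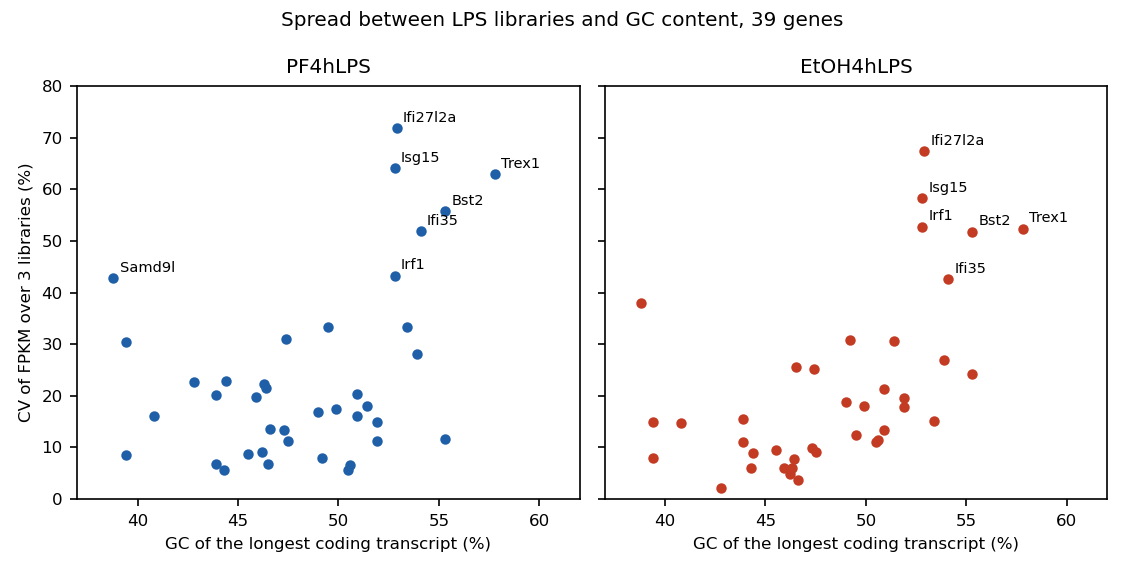
The coefficient of variation of FPKM over the 3 libraries is plotted against the GC content of the longest coding transcript for the 39 genes, in PF4hLPS (left) and EtOH4hLPS (right), with genes above 40% named. The named genes other than Samd9l lie at a GC content above 50%.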

How the data were processed

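RNA from 12 kidney cortex libraries was measured in 4 groups of 3. The authors deposited 1 table of FPKM values for 47719 Ensembl genes, with no counts. Per the labels' protocols, the libraries were stranded and made from mirVana total RNA depleted of ribosomal RNA. Per the submitters' processing notes, build mm10 was used with TopHat2 2.0.4, FastQC 0.10.1, Cuffnorm, Cuffdiff 2.1.1 and Cufflinks 2.2.1. Annotation release and strand setting were not given in the sources used, and overlapping genes may share fragments.

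Symbols and coordinates came from GENCODE M21 (GRCm38, the same assembly as mm10), which matched 47305 of the gene identifiers, and promoters from RefSeq (GRCm38.p6). Mb21d1 of the pathway list was matched as Cgas. The 14109 genes that reached 1 FPKM in 3 libraries or more were analysed as log2(FPKM + 1) with limma 3.58.1 in R 4.3.3, with 1 mean per group, an intensity trend and a robust prior, and Benjamini-Hochberg adjustment over all of them at a threshold of 0.05. The fit was tested on simulated data with independent noise, only for LPS in pair-fed mice and for changes of at least 1 log2 unit. The ethanol comparisons and the interaction were not simulated. No whole fragments were recovered and no count model was run, and the depth behind a single value is unknown.

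The members and the lists were chosen with earlier results of these data known. All 39 members are accounted for by role. Values per library are given for the members of each role with the highest and the lowest mean LPS fold change, for members called in a diet comparison and for those with the smallest p in the ethanol comparison under LPS and in the interaction, and for the roles of the pathway list the genes with the highest and the lowest change are named, where reported. Others shown by library (Rsad2, Trex1, Cmpk2, Ifnb1 and Ifng), and the named kinases and cell type markers, were chosen after their values were seen. The values of 1 gene of the pathway list are not reported here. Alternatives were pseudocounts of 0.1 and 5, no filter, a filter at 5 FPKM, 3 scalings, limma without trend and robust prior, only the groups compared, the replicate number as a block, and leaving out each library.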

Additional observations from a re-analysis of the deposited data

How the results depend on the processing

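Under each setting tried, LPS raised 38 of the 39 antiviral genes in pair-fed mice. In ethanol-fed mice it raised 36 with equal total FPKM and 37 or 38 under the other settings. The count of members that fell with ethanol under LPS, 2 as reported, was 1 with a pseudocount of 0.1, with the filter at 5 FPKM, with quantile normalization and without trend and robust prior. It was 0 with no filter on low values, with equal total FPKM and with only the groups compared, and 0 to 2 when 1 library was left out. The count for ethanol averaged over saline and LPS, 1 as reported, was 2 with a pseudocount of 5, 0 with no filter and with equal total FPKM, and 0 to 1 when 1 library was left out: 0 without any 1 PF or EtOH library, PF4hLPS library 3 or EtOH4hLPS library 2. With equal total FPKM the summed level was 364.4 FPKM in PF, 439.2 FPKM in EtOH and 3343 FPKM in PF4hLPS. The cause of these changes was not tested.

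With the replicate number as a block, both counts were 0 (Parp11 under LPS, limma adjusted p = 0.119). The labels give no meaning to the numbers: of 18 pairs of libraries with the same number, 5 had deviations correlated above 0.1, and 3 of 12 libraries correlated best with their own number, so the numbers were not taken as pairs.

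Among single genes, the LPS call of Samd9l in ethanol-fed mice was also lost with no filter (adjusted p = 0.114) and with the block (adjusted p = 0.0643) in limma. Trim34a under LPS passed with a pseudocount of 5 (-0.53, adjusted p = 0.0249), as did Trim14 in the average (-0.38, adjusted p = 0.0487). With equal total FPKM the all-gene median shifted by -0.399 log2 units for LPS in pair-fed mice, by -0.282 for LPS with ethanol and by 0.194 for ethanol under LPS. The share of LPS calls that were higher went from 62% to 25.1% in the pair-fed groups and from 62.5% to 35.5% in the ethanol groups. The number of libraries and the unknown fragment totals limit what can be detected.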
